A study of Arabidopsis thaliana with 24 samples.

Results

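The 10 genes described here belong to the iron deficiency circuit of Arabidopsis thaliana. They are the IRON MAN peptide genes IMA1 (AT1G47400), IMA2 (AT1G47395) and IMA3 (AT2G30766), the subgroup Ib bHLH transcription factor genes bHLH38 (AT3G56970), bHLH39 (AT3G56980), bHLH100 (AT2G41240) and bHLH101 (AT5G04150), the transporter gene OPT3 (AT4G16370), the ubiquitin ligase gene BTS (AT3G18290) and the ferritin gene FER1 (AT5G01600). They were taken by locus identifier from a table of read counts for 21407 loci. All 10 were in the table, and all 10 were among the 21015 genes that passed a filter on low counts. The set was chosen with results of these same counts known and without naming a contrast, so every value of the 10 genes is given as a description, with no p-value. The deposited annotation calls the 3 IMA loci unknown proteins, so they are identified by locus.

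Polyadenylated RNA was sequenced from Col-0 seedlings, 2 weeks old, that over-expressed the long noncoding RNA ELENA1 (OX) or were wild type (WT). Seedlings of each genotype were harvested from solid medium without elf18 (0 h), or 1, 6 or 12 h after a move into liquid medium that held elf18 at 5 µM and sucrose. The peptide elf18 is an epitope of bacterial elongation factor Tu that plants perceive as a sign of infection. Each of the 8 combinations of genotype and time had 3 biological replicates, which makes 24 libraries. For the over-expressors, promoter and line are not given in the sources used, and ELENA1 itself was not analysed here. No group was moved to liquid medium without elf18, so in a comparison with 0 h the effects of peptide, transfer and hour of harvest cannot be told apart. In whole seedlings, fewer cells of a type and less RNA per cell cannot be told apart either.

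Plants short of iron switch on a cascade that ends in iron uptake by the root. The bHLH factors of subgroup IVc (ILR3, bHLH104, bHLH34 and bHLH115), with their partner URI (bHLH121), turn on the subgroup Ib genes, whose products pair with the factor FIT to turn on the iron reductase FRO2 and the transporter IRT1. BTS marks subgroup IVc factors for degradation and so holds the cascade down, while the short acidic IMA peptides bind BTS and release it. OPT3 loads iron into the phloem and carries news of the shoot's iron status to the root. FER1 stores iron in plastids and rises when iron is plentiful.

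Total counts per library ran from 18767661 to 85230211, and replicate 3 of each group lay between 18767661 and 23645600. The IMA genes had 29 counts or more in every library, whereas the subgroup Ib genes went down to 3 counts in a library, so their levels are the least precise. Levels are CPM, the counts scaled to the size of each library. Earlier work on these counts set 3 libraries apart by transcript length (WT 12 h replicate 3, and replicate 1 of OX at both 1 and 6 h), which was not measured again here. WT 0 h replicate 1 was the lowest of the 3 WT libraries at 0 h for all 10 genes, and OX 12 h replicate 2 was the highest of the 3 OX libraries at 12 h for all 10.

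IMA1 and IMA2 are neighbours on the plus strand of chromosome 1, with 0 annotated loci between them and 1.88 kb from the end of IMA2 to the start of IMA1, and IMA3 lies on chromosome 2. Their coding sequences, from RefSeq (TAIR10.1), are shown because counts of close copies are only as separate as their sequences. They run 5′ to 3′ from the start codon to the stop codon, in lower case. Capitals mark the bases that differ from IMA2 in IMA1, and from IMA1 in IMA2 and in IMA3.
IMA1: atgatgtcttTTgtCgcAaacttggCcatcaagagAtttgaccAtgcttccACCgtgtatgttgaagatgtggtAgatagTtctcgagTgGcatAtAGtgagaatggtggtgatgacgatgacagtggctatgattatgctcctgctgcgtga
IMA2: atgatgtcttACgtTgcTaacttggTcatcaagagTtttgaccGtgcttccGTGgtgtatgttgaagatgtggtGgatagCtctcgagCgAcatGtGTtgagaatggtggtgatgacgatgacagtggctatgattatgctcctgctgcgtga
IMA3: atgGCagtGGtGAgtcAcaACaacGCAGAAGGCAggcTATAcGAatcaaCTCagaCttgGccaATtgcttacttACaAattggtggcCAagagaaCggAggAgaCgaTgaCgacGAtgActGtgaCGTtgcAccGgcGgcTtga
IMA1 and IMA2 matched at 136 of 153 aligned bases (88.9%), and their last 55 coding bases were the same. IMA3 matched IMA1 at 51.4% and IMA2 at 52.1% of aligned columns. No stretch of 75 bases, the read length, from an IMA1 transcript occurred in IMA2 with 2 mismatches or fewer, nor the reverse. The other adjacent pair, bHLH38 and bHLH39 on chromosome 3, lies 1.15 kb apart with 83.4% identity of the coding sequences, and 3 such stretches of each matched the other.

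IMA1 was lowest in OX at 0 h and highest in WT at 12 h. At 0 h the OX libraries held 2.23, 2.24 and 1.41 CPM of IMA1, against 3.11, 7.91 and 5.74 CPM in WT. At 1 h they held 7.67, 5.14 and 4.72 CPM in OX, against 3.24, 4.04 and 1.99 CPM in WT. The order of the genotypes was thus the opposite at 1 h, and the libraries of OX and WT did not overlap at either time. At 6 h IMA1 stood at 6.95, 5.58 and 4.13 CPM in OX and 5.05, 4.32 and 7.19 CPM in WT, and the groups overlapped. The 12 h values were 7.49, 8.62 and 7.08 CPM in OX and 21.2, 16.2 and 16.8 CPM in WT, with all WT libraries above all OX libraries. As log2 fold changes of OX over WT from the fit, with the standard error (SE, n = 3 a group), these were -1.45 ± 0.30 at 0 h, 0.89 ± 0.30 at 1 h, 0.09 ± 0.28 at 6 h and -1.22 ± 0.26 at 12 h.

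IMA2 had the same order of the genotypes at 0, 1 and 12 h. It had 4.46, 4.09 and 3.36 CPM in OX and 5.42, 14.5 and 9.46 CPM in WT at 0 h. At 1 h IMA2 had 13.2, 8.87 and 7.98 CPM in OX and 4.40, 5.15 and 3.53 CPM in WT. Every OX library was thus below WT at 0 h and above it at 1 h. At 6 h the values of IMA2 were 11.3, 10.7 and 7.66 CPM in OX and 9.27, 8.97 and 11.8 CPM in WT. At 12 h they were 11.5, 15.2 and 10.6 CPM in OX and 29.4, 25.7 and 25.2 CPM in WT. The OX over WT log2 fold changes of IMA2 were -1.28 ± 0.26, 1.19 ± 0.27, 0.02 ± 0.25 and -1.09 ± 0.24 (SE) at 0, 1, 6 and 12 h, and 0.95 at 1 h without OX 1 h replicate 1.

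IMA3 differed from the other two in its course in OX. At 0 h it stood at 4.41, 4.25 and 3.94 CPM in OX and 4.48, 17.6 and 12.6 CPM in WT, so the lowest WT library was just above the highest OX library. At 1 h IMA3 stood at 4.05, 1.78 and 1.90 CPM in OX and 1.31, 2.42 and 1.82 CPM in WT, so all WT libraries lay below their 0 h levels while OX overlapped its own. At 6 h the values were 7.75, 10.3 and 4.69 CPM in OX and 8.27, 7.03 and 11.6 CPM in WT. The 12 h libraries stood at 15.2, 20.7 and 15.1 CPM in OX and 46.2, 47.6 and 44.3 CPM in WT, the widest gap of the course in CPM. The OX over WT log2 fold changes were -1.45 ± 0.36, 0.54 ± 0.47, -0.18 ± 0.35 and -1.42 ± 0.32 (SE) at 0, 1, 6 and 12 h, and the value at 1 h was 0.02 without OX 1 h replicate 1.

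**Figure D1:**
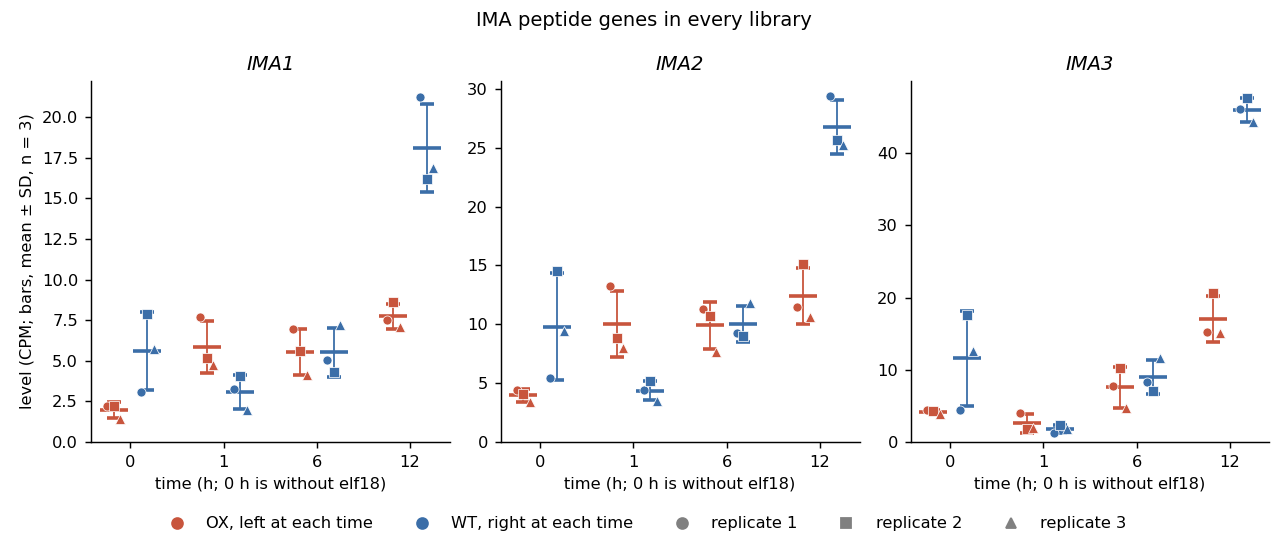
Levels of IMA1, IMA2 and IMA3 in CPM (linear axes) in every library at 0, 1, 6 and 12 h, OX left and WT right at each time; symbols are replicates, and bars the mean ± SD (n = 3). At 12 h the WT libraries of IMA3 sit between 44.3 and 47.6 CPM and the OX libraries between 15.1 and 20.7 CPM.

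Read against 0 h, IMA1 and IMA2 went opposite ways in the genotypes at 1 h. Their log2 fold changes from 0 h to 1 h were 1.53 ± 0.31 and 1.32 ± 0.27 (SE) in OX, against -0.80 ± 0.30 and -1.15 ± 0.27 in WT. The 0 h and 1 h libraries of IMA1 overlapped in WT, and without WT 0 h replicate 2 these WT values were -0.40 and -0.70. IMA3 had -0.68 ± 0.41 in OX, or -1.20 without OX 1 h replicate 1, and -2.67 ± 0.43 in WT. At 12 h all 3 genes were above their 0 h level in each genotype, by 1.93 ± 0.30, 1.64 ± 0.26 and 2.02 ± 0.36 in OX and by 1.70 ± 0.26, 1.45 ± 0.24 and 2.00 ± 0.32 in WT (SE, IMA1, IMA2 and IMA3 in turn). The difference between those responses, OX minus WT, was 2.33 ± 0.43, 2.47 ± 0.38 and 1.99 ± 0.59 at 1 h, and 0.23 ± 0.40, 0.19 ± 0.36 and 0.02 ± 0.48 at 12 h (SE), where each had either sign with 1 library left out. These differences rest on the 0 h libraries shared by the 3 times. Without WT 0 h replicate 1, all log2 fold changes of OX over WT at 0 h were further from 0, at -1.76, -1.59 and -1.85 for IMA1, IMA2 and IMA3. Without WT 0 h replicate 2 they were nearer to 0, at -1.05, -0.83 and -0.94.

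Markers of other tissues and clock genes were read beside the peptide genes. The summed level of 15 root markers was 142.9 to 156.2 CPM in OX and 139.9 to 190.6 CPM in WT at 0 h, with the WT minimum in replicate 1. At 1 h it was 109.1 to 119.6 CPM in OX and 109.0 to 128.2 CPM in WT. The 6 h sum was 120.5 to 130.8 CPM in OX and 133.8 to 158.5 CPM in WT, without overlap, while the IMA genes overlapped. The sum at 12 h was 138.1 to 147.2 CPM in OX and 172.4 to 175.6 CPM in WT, which did not overlap. None of the root markers was at 0 in any library. The median log2 fold change of the 15, OX over WT, was -0.27, -0.02, -0.14 and -0.26 at 0, 1, 6 and 12 h. Over all genes it was 0.03, -0.01, -0.0027 and 0.01. By edgeR's test 1 of the 15 was lower in OX at 0 h (14.6% of all genes passed in either direction), the aquaporin gene TIP2;3 (-0.82 ± 0.26 SE, adjusted p = 0.04, reaching 0.19 over its 12 alternatives), and 2 were lower at 12 h (1.65% of all genes), the root hair expansin genes EXPA7 (-0.73 ± 0.12 SE, adjusted p = 0.0027) and EXPA18 (-0.65 ± 0.11 SE, adjusted p = 0.0042). These 3 genes were named after their values were seen. The part of root tissue in the IMA difference was not tested. The summed level of 5 phloem companion cell markers, among them the sucrose transporter gene SUC2, was 372.3 to 376.4 CPM in OX and 388.7 to 405.5 CPM in WT at 12 h. It was also lower in OX at 1 h, at 337.2 to 349.3 CPM in OX and 364.3 to 387.7 CPM in WT, where IMA1 and IMA2 were higher in OX, and it overlapped at 0 and 6 h. By edgeR's test none of the 5 passed between OX and WT at 0, 1, 6 or 12 h (14.6%, 5.7%, 1.52% and 1.65% of all genes). Their median log2 fold change was 0.13, -0.07, -0.08 and -0.07 at those times. The summed level of 9 circadian clock genes was 653.7 to 700.9 CPM in OX and 539.7 to 598.0 CPM in WT at 0 h. At 1 h the clock sum was 303.9 to 360.1 CPM in OX and 398.5 to 428.7 CPM in WT. The sum was thus higher in OX at 0 h and lower in OX at 1 h. At 6 and 12 h it overlapped. Of the 9 clock genes, 3 were higher and 3 lower in OX at 0 h (14.6% of all genes passed), and 2 were lower at 1 h (5.7%). Their median log2 fold change was -0.02 at 0 h and -0.25 at 1 h, so at 0 h the sum did not stand for the single genes. The part of the phloem and of the clock in the members' differences was not tested.

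The subgroup Ib genes were uneven between replicates, up to 18.3-fold between the highest and the lowest library of a group, for bHLH100 in OX at 12 h. bHLH38 had 0.429, 0.313 and 0.341 CPM in OX and 0.365, 2.62 and 1.18 CPM in WT at 0 h. The 12 h libraries had 0.553, 3.47 and 0.537 CPM in OX and 7.11, 2.97 and 1.45 CPM in WT. In each of those groups but OX at 0 h a single library, WT 0 h replicate 2, OX 12 h replicate 2 or WT 12 h replicate 1, lay well above the rest. bHLH100 had 0.435, 7.96 and 0.590 CPM in OX and 14.1, 5.73 and 2.57 CPM in WT at 12 h. At 0 h bHLH100 had 0.429, 0.738 and 0.292 CPM in OX and 0.330, 3.48 and 1.60 CPM in WT. All 4 subgroup Ib genes were highest in OX 12 h replicate 2 and in WT 12 h replicate 1 within their groups, so the spread at 12 h was shared by the family. In WT at 0 h 3 of the 4 were highest in replicate 2, and bHLH101 was highest in replicate 3.

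At 1 h in OX, bHLH38 and bHLH39 were above their 0 h levels, and bHLH100 and bHLH101 were not. bHLH39 had 7.23, 6.23 and 5.40 CPM in OX and 3.27, 4.78 and 2.96 CPM in WT at 1 h, without overlap. At 0 h it had 0.704, 1.03 and 0.877 CPM in OX and 0.799, 4.06 and 1.25 CPM in WT. Every 1 h library of OX was therefore above every 0 h library of either genotype. bHLH38 had 2.16, 1.36 and 1.22 CPM in OX and 0.566, 0.962 and 0.626 CPM in WT at 1 h. From 0 h to 1 h the log2 fold changes in OX were 2.12 ± 0.82 for bHLH38 and 2.88 ± 0.65 for bHLH39, and in WT -0.99 ± 0.74 and 0.79 ± 0.56 (SE). Without WT 0 h replicate 2 the WT values were 0.12 and 1.94, so the sign for bHLH38 rests on that library. bHLH100 and bHLH101 had -0.53 ± 1.28 and -0.65 ± 0.62 in OX and -2.05 ± 1.12 and -2.08 ± 0.65 in WT. The OX values were -1.06 and -1.03 without OX 1 h replicate 1, and bHLH100 in WT was -0.84 without WT 0 h replicate 2.

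bHLH39 at the remaining times had 1.12, 1.12 and 0.403 CPM in OX and 0.703, 0.491 and 0.987 CPM in WT at 6 h, and 0.494, 3.77 and 0.429 CPM in OX and 9.01, 4.46 and 2.80 CPM in WT at 12 h. bHLH101 ran from 0.217 to 1.95 CPM over the OX libraries and from 0.141 to 3.34 CPM over the WT libraries. At 6 h all 4 genes were low, between 0.202 and 1.12 CPM in OX and between 0.141 and 0.987 CPM in WT. Their OX over WT log2 fold changes at 12 h, in the order bHLH38, bHLH39, bHLH100 and bHLH101, were -1.18 ± 0.56, -1.57 ± 0.55, -1.16 ± 0.67 and -1.10 ± 0.52 (SE). Without OX 12 h replicate 2 they were -2.90, -3.58, -4.01 and -3.22. Without WT 12 h replicate 1 they were -0.39, -0.98, -0.34 and -0.54, and without OX 12 h replicate 1 -0.76, -1.12, -0.65 and -0.62, so their size rests on single libraries. At 0 h the same fold changes were -1.94 ± 0.82, -1.32 ± 0.68, -1.83 ± 1.00 and -1.07 ± 0.52 (SE), with overlapping libraries for all 4. Without WT 0 h replicate 2 they were -0.83, -0.17, -0.62 and -0.97.

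**Figure D2:**
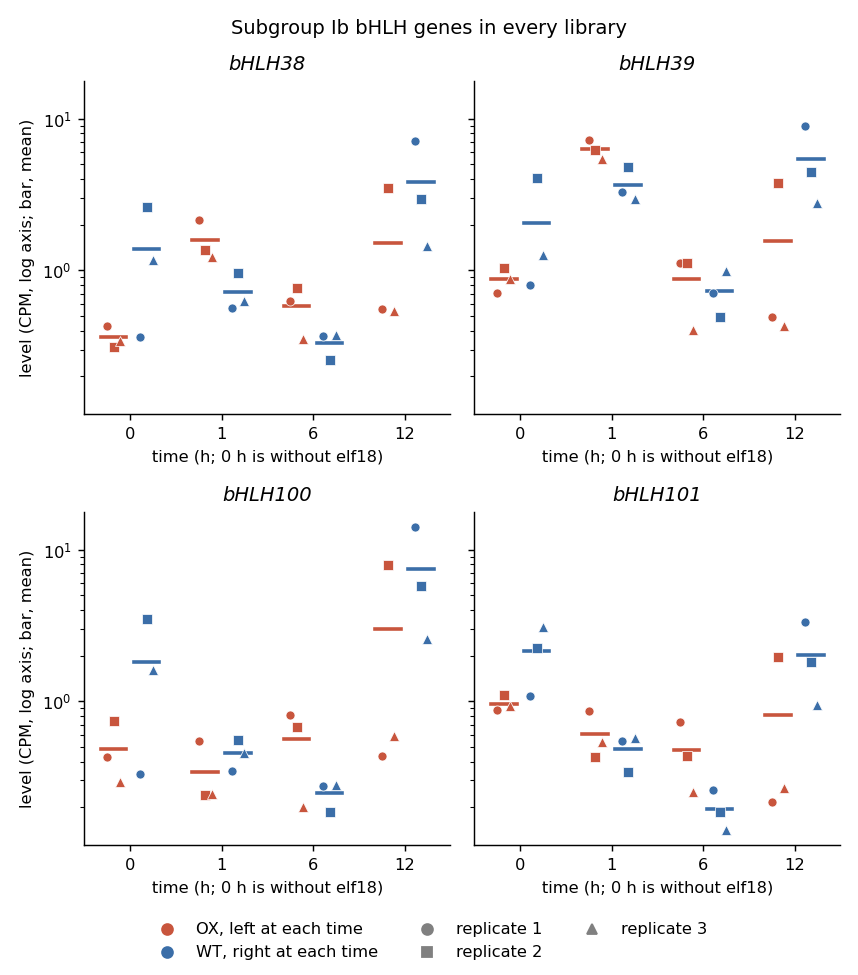
Levels of bHLH38, bHLH39, bHLH100 and bHLH101 in CPM (log axes) in every library at 0, 1, 6 and 12 h, OX left and WT right at each time; symbols are replicates, and bars the mean (n = 3). At 12 h replicate 2 of OX (square) and replicate 1 of WT (circle) are the highest of their groups in all 4 panels, at 7.96 and 14.1 CPM for bHLH100.

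OPT3, the phloem iron transporter gene, was tight between replicates. It had 97.5, 109.7 and 106.8 CPM in OX and 113.6, 125.7 and 131.3 CPM in WT at 0 h. At 1 h it had 100.2, 99.0 and 92.8 CPM in OX and 67.4, 77.3 and 70.6 CPM in WT, so OX overlapped its 0 h level and every WT library lay below its own. At 6 h the groups overlapped, at 143.0, 150.5 and 150.1 CPM in OX and 155.4, 132.2 and 177.9 CPM in WT. At 12 h OPT3 reached 177.2, 195.3 and 184.9 CPM in OX and 235.1, 239.7 and 262.7 CPM in WT, without overlap. Its OX over WT log2 fold changes were -0.24 ± 0.09, 0.44 ± 0.09, -0.07 ± 0.09 and -0.40 ± 0.09 (SE) at 0, 1, 6 and 12 h, so the sign at 1 h was the opposite of that at 0 and 12 h. From 0 h to 1 h its log2 fold change was -0.10 ± 0.09 in OX and -0.78 ± 0.09 in WT, and the difference of the responses was 0.68 ± 0.13 (SE). From 0 h to 12 h it was 0.83 ± 0.09 in OX and 0.99 ± 0.09 in WT (SE). OPT3 lies 2.65 kb from ELENA1 on chromosome 4, with 1 locus between them, and a link between this position and the levels of OPT3 was not tested.

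BTS, which holds the cascade down, was lower at 6 h than at 0 h in each genotype. It had 124.1, 131.2 and 123.7 CPM in OX and 125.8, 157.4 and 153.0 CPM in WT at 0 h. At 1 h BTS had 122.3, 159.3 and 163.0 CPM in OX and 171.5, 185.7 and 208.0 CPM in WT, and every WT library was above every OX library. At 6 h it had 67.6, 91.7 and 70.7 CPM in OX and 81.8, 66.1 and 75.6 CPM in WT. The fold changes from 0 h to 6 h on the log2 scale were -0.72 ± 0.14 in OX and -0.96 ± 0.14 in WT, and those of OX over WT at 0, 1, 6 and 12 h were -0.20 ± 0.14, -0.35 ± 0.14, 0.04 ± 0.14 and -0.10 ± 0.14 (SE). The value at 1 h was -0.21 without OX 1 h replicate 1. At 12 h BTS ranged from 85.4 to 108.6 CPM in OX and from 82.7 to 116.3 CPM in WT.

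FER1, the ferritin gene, was highest at 1 h and lowest at 12 h, while OPT3 was highest at 12 h. FER1 had 172.0, 207.0 and 187.0 CPM in OX and 167.7, 202.4 and 202.0 CPM in WT at 0 h. At 1 h FER1 had 271.7, 320.9 and 289.8 CPM in OX and 505.9, 355.1 and 570.5 CPM in WT. The genotypes overlapped at 0 h and lay apart at 1 h, with every WT library above OX. At 6 h it had 187.6, 127.6 and 129.3 CPM in OX and 112.5, 120.8 and 121.3 CPM in WT, where OX was the higher and its replicate 1 the highest. At 12 h FER1 had 54.3, 54.8 and 54.2 CPM in OX and 70.3, 73.3 and 59.5 CPM in WT, the lowest levels of the course. Its OX over WT log2 fold changes were -0.02 ± 0.14, -0.70 ± 0.14, 0.33 ± 0.15 and -0.32 ± 0.15 (SE) at 0, 1, 6 and 12 h, and 0.13 at 6 h without OX 6 h replicate 1. The summed level of 5 leaf mesophyll markers, among them RBCS1A, also differed with time. It was highest at 1 h (19963 to 22469 CPM in OX, 17574 to 22163 CPM in WT) and lowest at 12 h (3333 to 3712 CPM in OX, 3574 to 3990 CPM in WT), and its part in the course of FER1 was not tested.

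**Figure D3:**
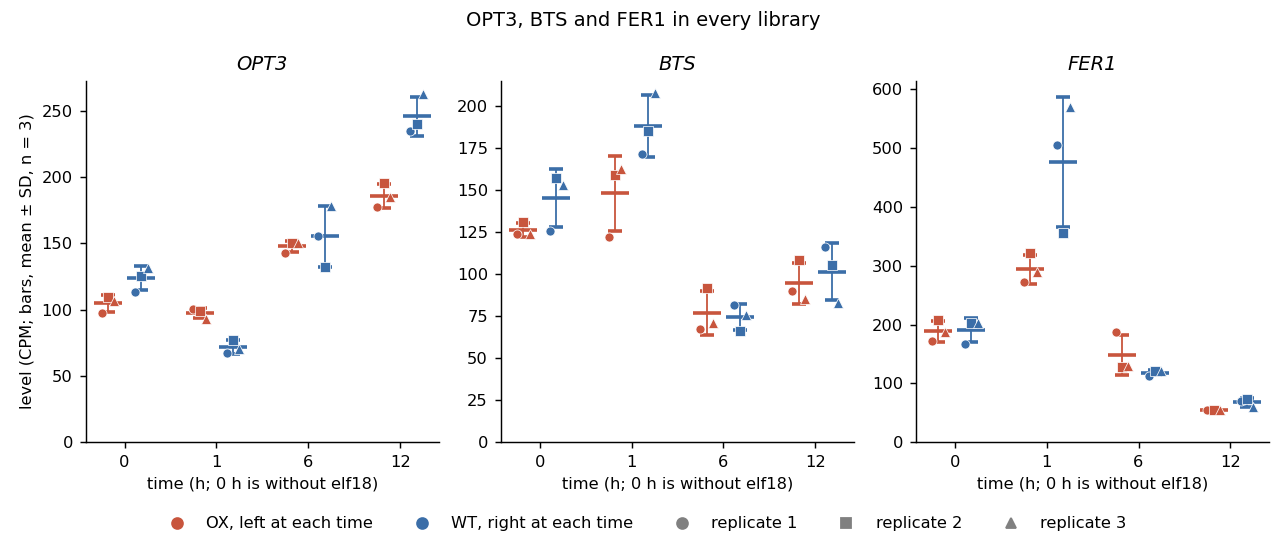
Levels of OPT3, BTS and FER1 in CPM (linear axes) in every library at 0, 1, 6 and 12 h, OX left and WT right at each time; symbols are replicates, and bars the mean ± SD (n = 3). At 1 h the OX libraries of OPT3 lie between 92.8 and 100.2 CPM, all above WT at 67.4 to 77.3 CPM, and the OX libraries of FER1 lie at 271.7 to 320.9 CPM, all below WT at 355.1 to 570.5 CPM.

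For the 10 genes together, the count past an adjusted p of 0.05 in edgeR's fit is set beside the share of all 21015 genes past it, and nothing is read from it since these contrasts may have chosen the genes. For OX over WT it was 3 of 10 at 0 h (14.6% of all genes), 3 at 1 h (5.7%), 0 at 6 h (1.52%) and 4 at 12 h (1.65%). At 6 h DESeq2 also called 0, and 1 gene was under 0.05 without adjustment in edgeR. The 3 genes at 0 h were IMA1, IMA2 and IMA3, those at 1 h IMA2, OPT3 and FER1, and those at 12 h the 3 IMA genes and OPT3. The median log2 fold change over the 10 genes was -1.30, 0.49, 0.21 and -1.13 at the 4 times, and over all genes it was 0.03, -0.01, -0.0027 and 0.01. The libraries of OX and WT did not overlap for 4 of the 10 genes at 0 h (32.2% of all genes), 7 at 1 h (25.2%), 1 at 6 h (17.4%) and 5 at 12 h (34.5%). The count past the threshold at 0 h was 5 without WT 0 h replicate 1. At 12 h it was 0 without OX 12 h replicate 1 or replicate 3, 1 without WT 12 h replicate 1 or replicate 3, and 2 without WT 12 h replicate 2.

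**Figure D4:**
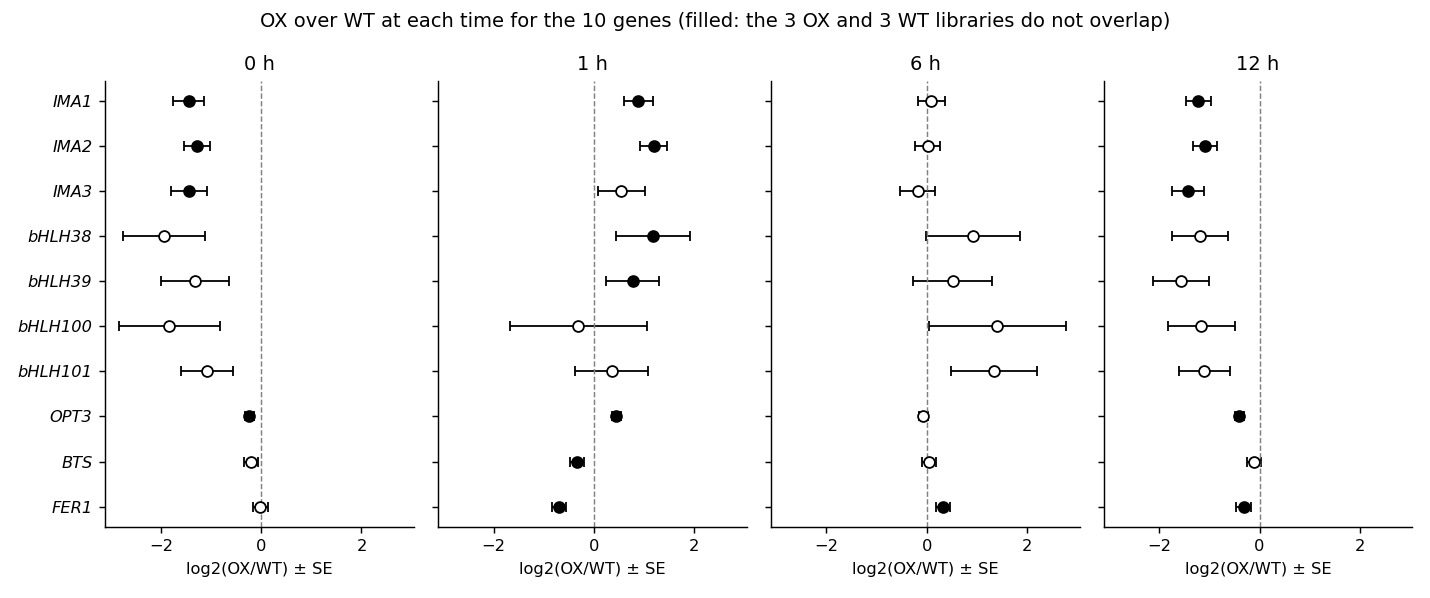
Log2 fold change of OX over WT at 0, 1, 6 and 12 h for each of the 10 genes, with bars of 1 SE from the fit (n = 3 libraries a group); filled points mark genes whose OX and WT libraries do not overlap. The 3 IMA genes lie left of 0 at 0 h and at 12 h, at -1.45, -1.28 and -1.45 and at -1.22, -1.09 and -1.42, and at 1 h IMA1, IMA2 and OPT3 lie right of 0 at 0.89, 1.19 and 0.44.

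Against 0 h the counts were 5, 6 and 8 of 10 in OX at 1, 6 and 12 h, beside 68.8%, 58.9% and 70.0% of all genes. In WT they were 7, 7 and 9 of 10, beside 67.8%, 57.8% and 72.5%. The count of 7 in WT at 6 h was 4 without WT 0 h replicate 2, WT 6 h replicate 1 or WT 6 h replicate 2. For the difference between the genotypes' responses the count was 5 at 1 h (12.7% of all genes), 2 at 6 h (6.34%) and 0 at 12 h (5.52%). At 12 h DESeq2 also called 0, and 0 were under 0.05 without adjustment in edgeR. The 5 at 1 h were the 3 IMA genes, OPT3 and FER1, and the count was 3 without WT 0 h replicate 2, WT 1 h replicate 1, OX 0 h replicate 2, OX 0 h replicate 3 or OX 1 h replicate 1. The 2 at 6 h were IMA1 and IMA2. That count was 1 without OX 0 h replicate 2 or OX 6 h replicate 2, and 0 without WT 0 h replicate 2, WT 6 h replicate 1, WT 6 h replicate 2, OX 0 h replicate 3 or OX 6 h replicate 1.

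Over the 24 libraries the members fell into groups by their correlation of log2 CPM, a description that shares depth, time and genotype. IMA1 and IMA2 had r = 0.98, and IMA3 had 0.80 with IMA1 and 0.84 with IMA2. OPT3 went with IMA3 (r = 0.93) and against FER1 (r = -0.93). With group means removed, so that only differences between replicates remain, bHLH38 had r = 0.93 with bHLH39, 0.95 with bHLH100 and 0.81 with bHLH101. IMA2 kept 0.79 with bHLH38 on that measure and 0.89 with IMA3, and OPT3 against FER1 had -0.17. Replicates that were high in bHLH38 thus tended to be high in IMA2 as well.

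Other genes were ranked by the same correlation among the 17694 tested genes whose mean log2 CPM reached 1. The 5 most like IMA1 were AT5G64850, AT2G36290, AT4G30400, the dehydroascorbate reductase gene DHAR2 and AT3G16330, with r from 0.88 to 0.89. For bHLH39 they were PYE, a bHLH regulator of iron deficiency genes in the root (r = 0.82), the lipid transfer protein gene DIR1, AT3G24030, AT1G72030 and AT1G78020 (r = 0.79 to 0.81). For OPT3 they were the receptor-like kinase gene RLK902 (r = 0.97), AT2G34080, the prephenate dehydratase gene PD1, the sulfate transporter gene SULTR1;2 and AT5G47920 (r = 0.96). For FER1 they were the B-box genes BBX28 and BBX16 (r = 0.96 each), AT3G59350, the light-harvesting gene CAB2 and AT1G78140 (r = 0.95 to 0.96).

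Between genes, levels can be compared only per length, in the authors' FPKM per group, which carry no spread. FER1 had the highest mean over the 8 groups (162.9 FPKM), followed by IMA2 (63.8), OPT3 (58.5), IMA3 (48.0), BTS (27.8) and IMA1 (24.02). The subgroup Ib genes were far below, at 4.46 FPKM for bHLH39, 3.51 for bHLH100, 2.04 for bHLH101 and 1.96 for bHLH38. Per kilobase of the annotated transcript in CPM, OPT3 and BTS stood above the IMA genes instead, in ranks 2 and 3. In WT at 12 h the authors' values were 177.2 FPKM for IMA3 and 57.7 FPKM for FER1. In WT at 1 h they were 7.23 FPKM for IMA3 and 403.8 FPKM for FER1.

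Genes of the iron pathway outside the 10 were read in 4 lists with 55 genes tested, and these carry tests. The lists too were chosen with earlier results of these data known. Up to 4 genes of each list are named below for the smallest adjusted p in any comparison. Their p-values are therefore no independent support. For OX over WT, 3 of the 55 were higher and 6 lower at 0 h, 3 were higher and 8 lower at 1 h, 3 were lower at 6 h and 3 lower at 12 h by edgeR's quasi-likelihood test with Benjamini-Hochberg adjustment over all genes. The shares of all genes past the same threshold at those times are the ones given above, 14.6%, 5.7%, 1.52% and 1.65%. The median log2 fold change of the 55 was -0.05, -0.01, 0.03 and -0.02, beside 0.03, -0.01, -0.0027 and 0.01 for all genes. The 3 higher genes were URI, YSL3 and FRO4 at 0 h and NAS4, F6'H1 and FRO4 at 1 h. The 3 lower genes at 6 h were NAS1, YSL2 and IRT2, and those at 12 h were NAS4, ZIF1 and IRT2. FRO4, YSL2 and IRT2 were named after their values were seen. Leaving out WT 0 h replicate 1 gave a count of 17 at 0 h, and leaving out WT 0 h replicate 2 or OX 0 h replicate 3 gave 5. At 1 h it was 6 without WT 1 h replicate 1 or replicate 3, 5 without OX 1 h replicate 1 and 7 without OX 1 h replicate 2 or replicate 3. At 6 h it was 0 without WT 6 h replicate 1, WT 6 h replicate 2 or OX 6 h replicate 1. Without WT 6 h replicate 3 it was 1. At 12 h it was 0 without WT 12 h replicate 1 or OX 12 h replicate 1, and 1 without any of the other 4 libraries.

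Against 0 h, 19 of the 55 rose and 17 fell in OX at 1 h, 16 rose and 15 fell at 6 h, and 20 rose and 21 fell at 12 h. In WT 21 rose and 15 fell at 1 h, 15 rose and 19 fell at 6 h, and 19 rose and 22 fell at 12 h. The share of all genes past the threshold was 58.9% to 70.0% in OX and 57.8% to 72.5% in WT. The response differed between OX and WT for 11 of the 55 at 1 h (12.7% of all genes), 6 at 6 h (6.34%) and 1 at 12 h (5.52%). That count was 6 at 1 h without OX 0 h replicate 2, 10 at 6 h without WT 0 h replicate 1 and between 0 and 2 at 12 h with 1 library left out.

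Among the iron regulators, 14 genes were tested. URI (bHLH121) had 45.4, 46.9 and 54.0 CPM in OX and 29.2, 28.1 and 33.9 CPM in WT at 0 h. The log2 fold change of 0.68 ± 0.09 passed (SE, n = 3, adjusted p = 2.1e-05), and no libraries overlapped. The difference of the responses to the treatment, OX minus WT, was -0.69 ± 0.13 at 1 h (SE, adjusted p = 0.0012) and -0.64 ± 0.14 at 6 h (adjusted p = 0.0052). PYE was lower in OX at 0 h (-0.58 ± 0.14, adjusted p = 0.0046, SE, n = 3), at 6.98, 7.36 and 5.94 CPM in OX and 8.68, 11.3 and 10.8 CPM in WT. It rose at 1 h by 1.25 ± 0.13 in OX and 0.77 ± 0.13 in WT (SE, adjusted p = 4.2e-08 and 2.4e-05). The locus AT2G22760, a bHLH gene named after its values were seen, was lower in OX at 0 h (-2.11 ± 0.40, adjusted p = 0.00034, SE, n = 3), with 0.429, 0.157 and 0.243 CPM in OX and 0.903, 1.75 and 1.14 CPM in WT. bHLH20 rose at 1 h by 1.56 ± 0.11 in OX and 1.18 ± 0.11 in WT (SE, adjusted p = 6.9e-11 and 5.1e-09). bHLH11, a repressor of iron uptake genes, fell at 12 h by 1.04 in OX and 1.93 in WT on the log2 scale (adjusted p = 0.00012 and 4.6e-08). Its response at 6 h differed between the genotypes by 1.26 ± 0.29 (SE, adjusted p = 0.01). The call of bHLH11 as lower in OX at 0 h (-0.63 ± 0.18 SE, adjusted p = 0.021) was lost without WT 0 h replicate 2, WT 0 h replicate 3, OX 0 h replicate 1 or OX 0 h replicate 3, and with only the compared groups (adjusted p = 0.053 to 0.15). In all, 7 of the 14 regulators rose and 1 fell in OX at 1 h (68.8% of all genes passed in either direction). In WT 6 rose and 1 fell (67.8% of all genes).

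Of the 14 uptake and mobilization genes tested, FRO5 had the largest rise with time that passed the test and FRO6 the largest fall. FRO5, a ferric reductase gene, had 12.4, 11.5 and 14.0 CPM in OX and 12.4, 11.8 and 16.3 CPM in WT at 6 h, against 0.704, 0.313 and 0.487 CPM in OX and 0.278, 0.297 and 0.266 CPM in WT at 0 h. It rose by 4.59 ± 0.26 in OX and 5.54 ± 0.30 in WT (SE, adjusted p = 2.9e-13 and 3.9e-14). FRO6, a reductase gene of shoots, fell to 2.05, 1.29 and 1.34 CPM in OX and 3.18, 1.94 and 1.90 CPM in WT at 12 h (log2 fold changes -5.09 ± 0.27 and -4.18 ± 0.27 SE, adjusted p = 3.5e-13 and 5.6e-12). AHA2, a proton pump gene of the root surface, rose by 2.04 ± 0.10 in OX and 2.13 ± 0.10 in WT at 6 h (SE, adjusted p = 3.5e-13 and 1.7e-13). F6'H1, which makes the coumarins that mobilize iron, stood above WT in OX at 1 h (by 0.89 ± 0.14, SE, n = 3, adjusted p = 0.00032), at 62.9, 46.3 and 47.9 CPM in OX and 29.9, 30.0 and 24.5 CPM in WT. FRO4 with FRO5 and FRO6 with FRO7 are adjacent copies, and how reads were shared between such copies is not stated, so their split is uncertain. In this list 4 of the 14 genes rose and 7 fell in OX at 1 h (68.8% of all genes passed in either direction). In WT 4 rose and 6 fell (67.8% of all genes).

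The root uptake genes downstream of FIT were named after their values were seen. IRT1, the main iron transporter of the root surface, had 2.64, 1.40 and 1.66 CPM in OX and 9.99, 3.91 and 12.97 CPM in WT at 1 h, without overlap. It was lower in OX (-2.20 ± 0.58, adjusted p = 0.028, SE, n = 3). The OX over WT values of bHLH38 and bHLH39 at 1 h were 1.18 ± 0.74 and 0.78 ± 0.53 (SE), opposite in sign to IRT1. Those of bHLH100 and bHLH101 were -0.31 ± 1.37 and 0.35 ± 0.73 (SE), with overlapping libraries. FRO2, the root iron reductase gene, had 2.68, 0.932 and 1.02 CPM in OX and 7.25, 2.45 and 8.99 CPM in WT at 1 h (-1.93 ± 0.51, adjusted p = 0.027, SE, n = 3). CYP82C4, which modifies the coumarins released by roots, had 0.922, 0.431 and 1.02 CPM in OX and 3.90, 1.74 and 3.36 CPM in WT (-2.02 ± 0.51, adjusted p = 0.02, SE, n = 3). The call of IRT1 was lost without WT 1 h replicate 1, WT 1 h replicate 3 or any 1 of the OX 1 h libraries (adjusted p = 0.063 to 0.11), and those of FRO2 and CYP82C4 without 4 of the 6 libraries each. The call of CYP82C4 was also lost with DESeq2 (adjusted p = 0.2) and that of FRO2 in edgeR's fit of the compared groups only (adjusted p = 0.069). Summed root markers at 1 h overlapped between the genotypes, as given above, and the part of root tissue in these differences was not tested. At 0 h IRT1 had 0.944, 1.12 and 2.43 CPM in OX and 0.972, 7.06 and 1.86 CPM in WT, with WT replicate 2 again the high library.

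Among 21 distribution and chelation genes tested, NAS4, a gene for nicotianamine synthase, had the same signs of OX over WT as IMA1 and IMA2 at 0, 1 and 12 h. At 0 h NAS4 had 7.81, 7.31 and 5.89 CPM in OX and 11.6, 12.2 and 10.8 CPM in WT (-0.70 ± 0.11, adjusted p = 0.00014, SE, n = 3). At 1 h it had 7.73, 8.65 and 6.67 CPM in OX and 3.46, 4.53 and 3.70 CPM in WT (1.00 ± 0.13, adjusted p = 2.8e-05, SE, n = 3). The level in OX was thus near that at 0 h, and NAS4 fell at 1 h in WT (-1.57 ± 0.12 SE, adjusted p = 1.9e-10) but not past the threshold in OX (0.13 ± 0.12, adjusted p = 0.33). The response itself differed by 1.70 ± 0.17 at 1 h (SE, adjusted p = 6.3e-07) and 0.73 ± 0.16 at 6 h (adjusted p = 0.0057). At 12 h NAS4 was lower in OX (-0.43 ± 0.11, adjusted p = 0.039, SE, n = 3), a call lost without any of the 6 libraries compared (adjusted p = 0.067 to 0.15).

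YSL3, a transporter gene for iron bound to nicotianamine, was higher in OX at 0 h, at 121.1, 129.2 and 120.1 CPM in OX and 89.0, 66.0 and 69.1 CPM in WT (0.72 ± 0.11, adjusted p = 8.4e-05, SE, n = 3). It rose at 1 h by 1.35 ± 0.11 in OX and 2.23 ± 0.11 in WT (SE, adjusted p = 6.1e-10 and 1.3e-13), and these responses differed (-0.88 ± 0.16 SE, adjusted p = 0.00063). NAS1 rose at 6 h by 1.66 ± 0.11 in OX and 1.66 ± 0.11 in WT (SE, adjusted p = 6.2e-11 and 4.1e-11). ZIF1, which moves nicotianamine into vacuoles, fell at 6 h by 0.93 in OX and 1.23 in WT on the log2 scale (adjusted p = 5.2e-07 and 9e-09). NAS2, named after its values were seen, was lower in OX at 1 h (-2.09 ± 0.41, adjusted p = 0.002, SE, n = 3), at 0.545, 0.535 and 0.243 CPM in OX and 2.55, 0.838 and 2.96 CPM in WT. The NAS genes are close copies, and the split of reads between them is uncertain for the same reason. In this list 1 gene was higher and 2 were lower in OX at 0 h (14.6% of all genes passed in either direction), and 1 was higher and 5 lower at 1 h (5.7%).

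The storage and iron-using list had 6 genes tested. FSD1, an iron superoxide dismutase gene of plastids, rose at 1 h by 0.94 ± 0.13 in OX and 1.02 ± 0.13 in WT (SE, adjusted p = 9.9e-07 and 2.9e-07). It fell at 12 h by 1.00 in OX and 0.74 in WT on the log2 scale (adjusted p = 3.2e-07 and 1.8e-05). The ferritin gene FER4 rose at 1 h, by 0.77 ± 0.12 in OX and 0.88 ± 0.12 in WT (SE, adjusted p = 9e-06 and 1.7e-06). FER3 rose at 6 h by 0.45 ± 0.09 in OX and 0.32 ± 0.09 in WT (SE, adjusted p = 0.00014 and 0.0034). ORG1 fell at 1 h by 0.82 in OX and 1.62 in WT on the log2 scale (adjusted p = 0.0024 and 1.5e-06). By edgeR's test FER4 and FER3 did not pass between OX and WT at any of the 4 times, whereas the member FER1 stood at -0.70 at 1 h, where FER4 had 0.11 and FER3 -0.14.

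**Figure D5:**
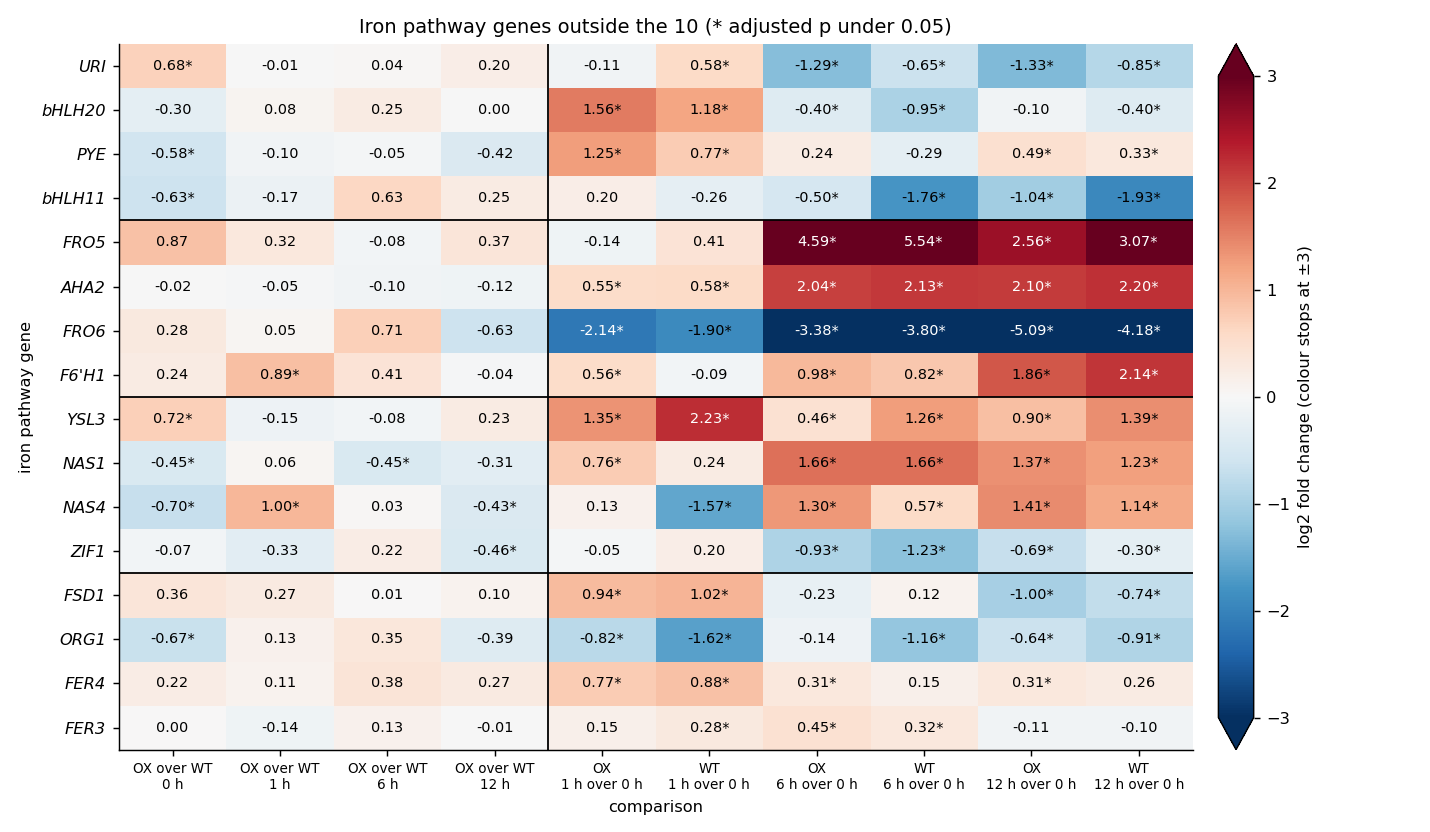
Log2 fold changes of 16 iron pathway genes outside the 10, for OX over WT at 0, 1, 6 and 12 h (left) and for each later time over 0 h in OX and in WT (right); rows are genes grouped by list, colour stops at 3 on either side of 0, and asterisks mark an adjusted p under 0.05 (edgeR, n = 3 a group). Among these 16 genes FRO5 holds the largest rise and FRO6 the largest fall, 5.54 in WT at 6 h and -5.09 in OX at 12 h, and NAS4 changes sign between 0 h (-0.70) and 1 h (1.00) in OX over WT.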

How the data were processed

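Polyadenylated RNA of 24 seedling libraries (8 groups of genotype and time, 3 biological replicates each) was sequenced as single reads from a stranded kit, per the labels' protocols. The submitters' processing notes name the build TAIR10, and as tools Cufflinks 2.1.1, TopHat2 2.0.8, DESeq2 and Cuffdiff. The read counter and whether it used strand are not stated there. Per the file headers, the authors deposited raw read counts per locus and library. They also deposited FPKM values per group, without replicates, which served to order genes by level.

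Of 21407 loci, 21015 passed edgeR's filterByExpr (minimum count 10). One edgeR 4.0.16 quasi-likelihood fit (R 4.3.3, TMM normalization, 8 group means, all 24 libraries) gave log2 fold changes, standard errors and, for 13 comparisons, p-values adjusted by Benjamini-Hochberg over all genes, with a threshold of 0.05. CPM used TMM-scaled library sizes, and log2 CPM a prior count of 2. The counts at hand ran from 18767661 to 85230211 per library, and precision was lowest for replicate 3 and for genes with few counts. The procedure was tested on simulated data with the same spread for every gene and changes planted only in OX at 0 h. That test did not cover responses with time, or genes as uneven between replicates as subgroup Ib. The 10 members and all gene lists were chosen with earlier results of these data known. Besides the members, the text names up to 4 genes of each of 4 iron pathway lists with the smallest adjusted p in any comparison, and the 5 genes most correlated with IMA1, bHLH39, OPT3 and FER1. Genes named otherwise are said to be so. Coding sequences and neighbours came from RefSeq (TAIR10.1), aligned with Biopython 1.88.

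Alternatives were RLE size factors, no filter on low counts, DESeq2 1.42.0, fits on the compared groups only, the replicate number as a block, leaving out 3 libraries together and leaving out each library in turn. Replicate numbers come from sample titles. Deviations of same-numbered libraries from their group means correlated at 0.22, 0.13 and 0.12 between OX and WT at 1 h, so the numbers were taken to pair libraries there and in no other of the 10 comparisons of groups checked. Between OX and WT at 12 h the correlations were -0.005, 0.34 and 0.19. Replicate 3 had the lowest total count in every group, and the part of depth in these correlations was not tested. Promoter motifs were not analysed.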

Additional observations from a re-analysis of the deposited data

Results flagged for a closer look

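The response from 0 h differed between OX and WT by the interaction term of the edgeR fit for the values below, all as OX minus WT on the log2 scale. At 1 h the difference was 2.33 for IMA1, 2.47 for IMA2, 1.99 for IMA3, 0.68 for OPT3 and -0.68 for FER1. At 6 h it was 1.54 for IMA1 and 1.30 for IMA2. These 10 genes were chosen with such results known, so the values are descriptions and nothing is read from the threshold. At 1 h IMA1, IMA2 and OPT3 were past it in 18 of 18 alternatives, IMA3 in 11 and FER1 in 9. At 6 h IMA1 was past it in 11 of the 18 and IMA2 in 9.

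Among iron pathway genes outside the 10, the difference at 1 h was 1.70 for NAS4 (adjusted p = 6.3e-07), -0.88 for YSL3 (adjusted p = 0.00063), -0.69 for URI (adjusted p = 0.0012), 0.65 for F6'H1 (adjusted p = 0.029) and 0.52 for NAS1 (adjusted p = 0.039). At 6 h it was -0.81 for YSL3 (adjusted p = 0.0027), -0.64 for URI (adjusted p = 0.0052), 0.73 for NAS4 (adjusted p = 0.0057), 1.26 for bHLH11 (adjusted p = 0.01) and 0.55 for bHLH20 (adjusted p = 0.049). At 12 h it was -0.48 for URI (adjusted p = 0.04). Over their 18 alternatives the adjusted p of F6'H1 at 1 h reached 0.1, that of NAS1 at 1 h 0.097, that of bHLH20 at 6 h 0.18 and that of URI at 12 h 0.12. All of these differences share the 0 h libraries of each genotype. The pathway lists were chosen with earlier results of these data known, and the named genes by their smallest adjusted p. These p-values are therefore no independent support.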

How the results depend on the processing

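Of the log2 fold changes of the 10 members and 16 named pathway genes, recomputed under each alternative, 4261 kept their side of the threshold, and their direction where they were called, 194 lost the call, 68 gained one and 1 reversed. The reversed value was bHLH100 in OX at 12 h over 0 h, -0.088 without OX 12 h replicate 2 and up to 3.27 without OX 12 h replicate 1. Outside these genes CYP82C4 in WT at 12 h over 0 h turned sign, 0.54 without WT 0 h replicate 2 against -2.43. For OX over WT, the count of iron pathway genes at 1 h was 11, against 7 without the 3 libraries set apart and 7 with only the compared groups. At 6 h it was 3, against 1 and 0 under the same alternatives and 6 with DESeq2. At 12 h it was 3, against 6 with only the compared groups and 5 with DESeq2. For the difference of responses at 12 h it was 1, against 2 without the 3 libraries, 2 with DESeq2 and 3 with the replicate block. The count of members for the difference of responses at 6 h was 2, against 0 without the 3 libraries and 1 with only the compared groups. The cause was not tested. RLE size factors and no filter moved no such count by over 1.5 times.

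With 1 library left out, pathway counts for OX over WT ran from 5 to 17 at 0 h, 5 to 9 at 1 h, 0 to 4 at 6 h and 0 to 1 at 12 h. Those for the difference of responses ran from 6 to 14 at 1 h, 4 to 10 at 6 h and 0 to 2 at 12 h. Member counts ran from 2 to 5 for OX over WT at 0 h and 0 to 6 at 12 h, from 4 to 8 for WT at 6 h over 0 h, and from 3 to 6 and 0 to 3 for the difference of responses at 1 and 6 h.

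At 1 h, where replicate numbers were taken to pair the libraries, the replicate block gave 12 pathway genes and 3 members for OX over WT. The fit without it gave 11 and 3, and the values printed for 1 h come from that fit. In other comparisons the numbers were not taken to pair libraries, though replicate 3 had the lowest total count in every group. For the difference of responses at 12 h the value under the block is the 3 given above. Per kilobase of transcript instead of FPKM, 7 of the 10 genes changed rank in level. Depth limits the subgroup Ib genes most: bHLH101 had 3 counts in WT 6 h replicate 3.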
